A study of Ovis aries with 9 samples.

Results

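Liver cells of pregnant sheep (Ovis aries) taken at gestation days 70 to 80 were compared with those taken at days 50 to 70. All cells whose column in the count table carries the name of either stage entered, 253 cells at days 70 to 80 and 289 cells at days 50 to 70, out of 3404 cells of 9 stages in the series. Every animal was female, and the labels record no treatment, genotype, breed or age beyond the stage. Livers came from slaughtered sheep, were kept cold in a storage solution and digested with collagenase, and hepatocytes were picked one by one under a microscope. Each picked cell received its own Smart-seq3xpress library, a plate-based method that reads the messenger RNA of single cells with high sensitivity. Each stage is 1 deposited sample, and how many animals gave its cells is not stated. With 1 sample on each side no test can be run and no p-value is given. Intervals printed here are exact 95% Poisson or binomial (Clopper-Pearson) intervals that cover counting error only, and reads without molecular identifiers are not independent molecules.

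The hepatocyte is the main working cell of the liver. It makes most plasma proteins, stores and releases glucose, builds and burns fat, and turns the nitrogen of amino acids into urea. In ruminants such as sheep the liver makes glucose around the clock from propionate, lactate and amino acids, because little glucose is absorbed from the gut, and in pregnancy it also serves the placenta and fetus. In rats and mice the maternal liver grows during pregnancy and some of its hepatocytes re-enter the cell cycle.

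The labelled cell type held. Of 15 hepatocyte markers such as ALB (albumin) and TAT, every cell thinned to an equal depth carried reads of at least 14 at both stages, and the list summed to 177045 CPM at days 70 to 80 and 192187 CPM at days 50 to 70. CPM (counts per 1000000) is a gene's share of the reads of the summed cells, scaled between stages by the TMM method. Markers of other liver cells were low in the summed stages. The 13 macrophage markers in the table summed to 40.9 CPM at days 70 to 80, against 41.7 CPM at days 50 to 70, with CD68 at 0 reads in both. The 11 lymphocyte markers summed to 8.49 CPM at days 70 to 80, against 17.8 CPM at days 50 to 70. The 12 endothelial markers summed to 9.25 CPM at days 70 to 80, against 13.8 CPM at days 50 to 70. Lymphocyte and endothelial sums were thus below that of many single genes. The 13 stellate and fibroblast markers summed to 14.6 CPM at days 70 to 80, against 9.6 CPM at days 50 to 70. The 7 neutrophil markers summed to 1.35 CPM at days 70 to 80, against 2.92 CPM at days 50 to 70. The 7 red cell markers summed to 25.4 CPM at days 70 to 80, against 24.4 CPM at days 50 to 70. The 11 bile duct markers, several of which hepatocytes also express, summed to 281 CPM at days 70 to 80 and 243 CPM at days 50 to 70. The sums differed between the column blocks described below. Lymphocyte markers ranged over 1.69 to 65.4 CPM at days 70 to 80 and 1.53 to 77.8 CPM at days 50 to 70. In the same order, macrophage markers ranged over 25.5 to 129 and 32.1 to 99.1 CPM. Red cell markers ranged over 8.14 to 178 and 0.652 to 50.6 CPM. Block 3 held the highest of each at days 70 to 80. Reads of at least 3 macrophage markers were found in 48 of 213 and 68 of 252 thinned cells.

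The cells of each stage did not form 1 uniform set. The count table holds each stage in 3 runs of adjacent columns that are interrupted by cells of other stages. A scan over all genes above 30 CPM found 1 sharp break inside a run, after the first 125 cells of days 50 to 70, where the mean squared standardized difference between the cells before and after was 9.33, against 1.31 to 2.56 at the best position in each of the other 5 runs. The cells are therefore described in column blocks, 3 at days 70 to 80 (89, 119 and 45 cells) and 4 at days 50 to 70 (125, 79, 16 and 69 cells). Each run was divided at 1 position at most and the parts were not scanned again, so a block may itself be mixed. What sets the blocks apart is not in the labels, so a block is neither an animal nor a batch by name and is not used as a replicate. Between block 1 and blocks 2 and 3 of days 70 to 80, 12.4% and 16.1% of genes at 5 CPM or more were at least 2-fold apart, and between blocks 2 and 3 it was 6.51%. Between block 1 of days 70 to 80 and block 1 of days 50 to 70 the share was 10.1%. Leaving out the 16-cell block, pairs within a stage ran from 6.51% to 18% and pairs across the stages from 10.1% to 21.1%, ranges that overlap. The 16-cell block was at least 2-fold from every other block at 31% to 34% of genes. Values below are given by block for this reason, in block order, and a gene is called separate when all 3 blocks of days 70 to 80 lie on one side of all 4 blocks of days 50 to 70.

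Depth was similar between the stages and unequal between blocks. Days 70 to 80 held 121865640 reads in named genes, with a median of 405562 per cell and block medians of 676557, 411334 and 205857. Days 50 to 70 held 122222238 reads, with a median of 374832 and block medians of 403787, 419147, 379150 and 321093. Per-cell detection was therefore counted after each cell had been thinned to 155164 reads, which left out 40 cells of days 70 to 80 and 37 of days 50 to 70.

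Hepatocytes of days 70 to 80 carried more detected genes. At equal depth the median cell had reads of 6389 genes at days 70 to 80 (213 cells), against 5428 genes at days 50 to 70 (252 cells), a difference of 961 genes. The quartiles over cells were 5737 and 6937 genes at days 70 to 80 and 4757.5 and 6042.5 at days 50 to 70. The order held for the block medians, which were 6707, 5889 and 6608 genes at days 70 to 80, against 5449, 5532.5, 4639 and 5418.5 at days 50 to 70. Block 1 of days 50 to 70 was wide, with quartiles of 4770 and 6233 genes. In column order its earlier cells mostly had more genes than its later ones. Its upper quartile lay above the median of block 2 of days 70 to 80, so the order did not hold for all of its cells. Of the cells of days 70 to 80, 88.3% lay above the days 50 to 70 median and 64.3% above its upper quartile. Without thinning the medians were 6748 genes at days 70 to 80 and 5819 at days 50 to 70. With a gene counted only from 3 reads in the thinned cell they were 4369 at days 70 to 80 and 3860 at days 50 to 70. The difference was 650 genes without block 1 of days 70 to 80 and 1230 genes without its block 2.

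**Figure D1:**
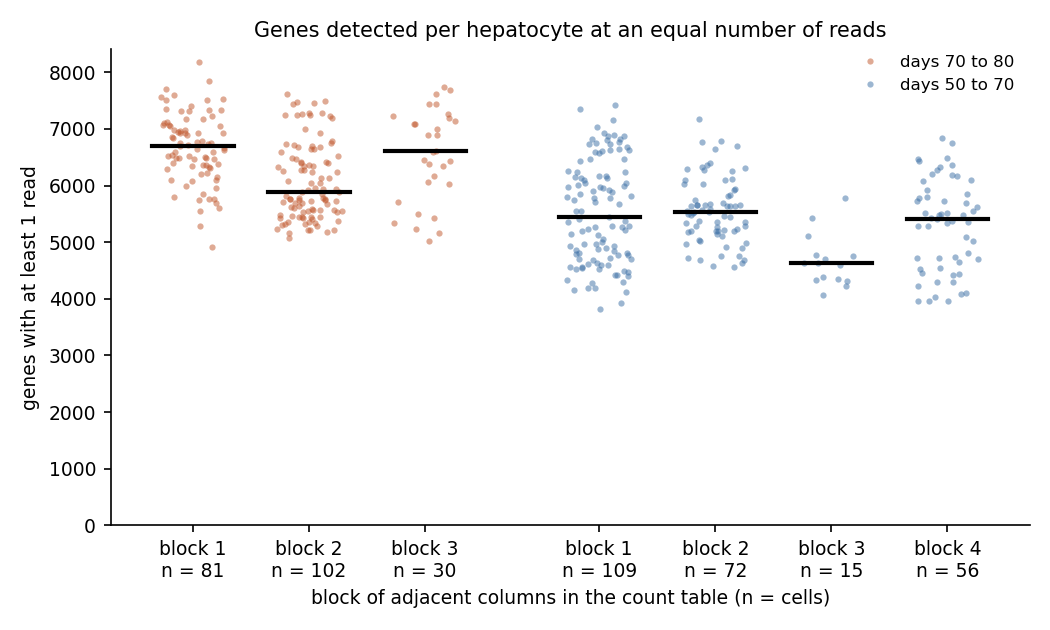
Number of genes with at least 1 read in each cell after thinning to 155164 reads (vertical axis), by block of adjacent columns; each point is a cell and each black line the block's median. The lowest block median of days 70 to 80 is 5889 genes, and the highest of days 50 to 70 is 5532.5 genes.

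The wider detection was spread over many weakly and moderately expressed genes. Among 11335 genes found in at least 10% of thinned cells at either stage, 9422 were found in a larger share of cells at days 70 to 80 and 1376 in a smaller share. The share was at least 20 percentage points higher for 771 genes (6.80% of those compared) and at least 20 points lower for 38 genes (0.335%). Genes averaging 5 to 20 CPM were found in a median 46.9% of cells at days 70 to 80, against 36.1% at days 50 to 70, while their median log2 ratio of summed CPM was 0.0094. For genes at 20 to 100 CPM the shares were 86.4% at days 70 to 80 and 76.2% at days 50 to 70. More cells thus carried a read of these genes while their summed level was close between stages. The share of all reads taken by the top 10 genes was 23.2% at days 70 to 80 and 23% at days 50 to 70. Albumin took 9.61% of reads at days 70 to 80 and 8.68% at days 50 to 70. Within single cells the 10 highest genes took a median 23.3% of reads at days 70 to 80, against 25.3% at days 50 to 70.

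Summed over cells, 355 of 8619 genes with at least 5 CPM at either stage were at least 2-fold higher at days 70 to 80 (4.12%) and 234 were at least 2-fold lower (2.71%). Scaled by library size alone, without TMM, the split was 466 higher and 162 lower, because that scaling shifts every log2 ratio up by 0.137. Without block 1 of days 70 to 80 the counts were 604 higher and 374 lower. Of the 355 higher genes 116 carry only a LOC identifier, and of the 234 lower ones 71 do. Not all of these differences ran through every block. Separate blocks were seen for 152 of the 355 (1.76% of all genes compared) and for 64 of the 234 (0.743%). Set against the summed days 50 to 70 cells, 99 of the 355 higher genes were 2-fold up in each of the 3 blocks of days 70 to 80, and 167 were so in blocks 2 and 3 only. Of the lower genes 103 were 2-fold down in all 3 blocks and 42 in blocks 2 and 3 only. Irrespective of fold, 500 genes (5.80%) were separate in the higher direction and 472 (5.48%) in the lower. The step from days 40 to 50 to days 50 to 70 put 464 genes past 2-fold, and that from days 70 to 80 to days 90 to 100 put 600 past it, against 589 here. Each of those steps shares a stage with the one described.

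**Figure D2:**
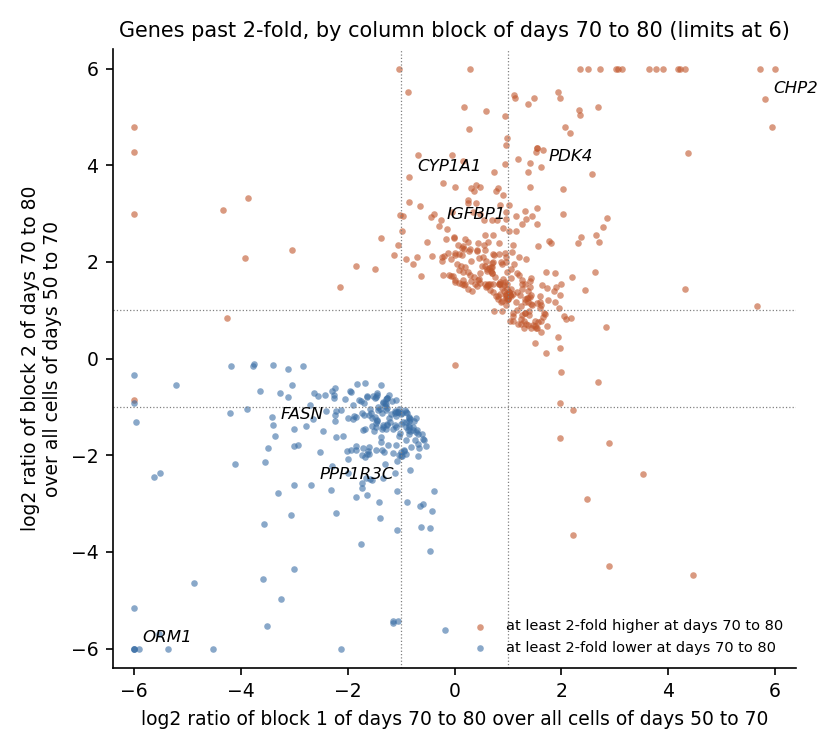
Genes at least 2-fold apart between the stages, with the log2 ratio of block 1 of days 70 to 80 over all cells of days 50 to 70 (horizontal axis) against that of block 2 (vertical axis), values beyond 6 drawn at 6 and dotted lines at 2-fold; 1 gene without reads at days 50 to 70 is left out. Many higher genes, CYP1A1 and IGFBP1 among them, lie above the upper line but within 2-fold on the horizontal axis, while CHP2, PDK4, ORM1 and PPP1R3C lie past 2-fold on both axes.

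Cell cycle genes were higher at days 70 to 80, and were so in part of the cells. Of 36 listed genes, all of them in the table, 34 were higher at days 70 to 80, CCNE1 was at 0.868 CPM at days 70 to 80, against 0.901 CPM at days 50 to 70, and AURKB had 0 reads at both stages. Only 7 of them reached 5 CPM at both stages, and a further 16 did so at days 70 to 80 alone. Blocks were separate for 21 of the 36. Of the 23 at 5 CPM or more at either stage, 23 were higher (all genes 4015 of 8619) and 18 were separate in that direction (all genes 5.80%). The 16 that passed this minimum through days 70 to 80 alone could only be higher. The list summed to 205, 846 and 527 CPM in the 3 blocks of days 70 to 80. It summed to 176, 133, 156 and 141 CPM in the 4 blocks of days 50 to 70, so block 2 of days 70 to 80 stood highest and its block 1 lay closer to the earlier stage.

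The list holds genes of DNA replication and of mitosis. PCNA, the sliding clamp of DNA polymerase, had 12.8, 44.6 and 28.6 CPM in the 3 blocks of days 70 to 80, against 14, 3.23, 11.3 and 9.13 CPM in the 4 blocks of days 50 to 70. MCM3, a subunit of the replicative helicase, had 5.5, 21.1 and 16.5 CPM at days 70 to 80, against 2.7, 2.7, 5.22 and 2.69 CPM at days 50 to 70. Genes of mitosis had few reads at days 50 to 70. MKI67, the proliferation marker Ki-67, had 7.08 CPM at days 70 to 80, against 0.12 CPM at days 50 to 70. CDK1, the kinase that drives entry into mitosis, had 7.77 CPM at days 70 to 80, against 0.0858 CPM at days 50 to 70. CCNB1, its cyclin partner, had 3.16, 36.6 and 16.8 CPM in the 3 blocks of days 70 to 80, against 0.613, 0.337, 1.96 and 0 CPM in the 4 blocks of days 50 to 70, a 38-fold ratio. CCNB1's log2 ratio was 5.25, and 6.12 without block 1 and 3.41 without block 2 of days 70 to 80. TOP2A, which untangles chromosomes, had 3.44, 57.5 and 24.1 CPM at days 70 to 80, against 3.35, 0.365, 0.652 and 0.705 CPM at days 50 to 70. Not every member was so low before: CCND1, a G1 cyclin, had 64.2 CPM at days 70 to 80, against 33.1 CPM at days 50 to 70, and its blocks 2 and 3 of days 70 to 80 (101 and 102 CPM) stood above its block 1 (27 CPM). The brake CDKN1A differed little, with 8.78 CPM at days 70 to 80, against 8.25 CPM at days 50 to 70.

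Further spindle and chromosome genes outside the list were among the largest ratios. SPC24, a part of the kinetochore complex that holds chromosomes to microtubules, had 5.93, 65.6 and 24.8 CPM in the 3 blocks of days 70 to 80, against 2.05, 4.33, 3.42 and 3.26 CPM in the 4 blocks of days 50 to 70. SPC24's log2 ratio was 3.41, and 4.27 without block 1 and 1.5 without block 2 of days 70 to 80. KNSTRN, a spindle protein, had 9.8, 75.5 and 36.1 CPM at days 70 to 80, against 4.92, 5.56, 2.93 and 1.28 CPM at days 50 to 70. KNSTRN's log2 ratio was 3.19, and 4.00 without block 1 and 1.66 without block 2 of days 70 to 80. CKS2, which binds cyclin-dependent kinases, had 9.63, 82.3 and 29.1 CPM at days 70 to 80, against 5.37, 3.12, 1.3 and 8.24 CPM at days 50 to 70. CKS2's log2 ratio was 3.05, and 3.87 without block 1 and 1.3 without block 2 of days 70 to 80. NCAPD2, a condensin subunit, had 15, 29 and 19.6 CPM at days 70 to 80, against 5.08, 1.8, 0.978 and 4.06 CPM at days 50 to 70 (log2 ratio 2.54). SPC24 was detected in 26.8% of cells at days 70 to 80, against 9.52% at days 50 to 70. These genes were carried by part of the cells: the median cell of every block had 0 reads of SPC24, KNSTRN, CKS2 and CCNB1.

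Counted per cell at equal depth, reads of 10 or more of the 36 genes, a threshold chosen after the values were seen, were found in 52 of 213 cells at days 70 to 80 (24.4%, binomial interval 18.8% to 30.8%), against 2 of 252 cells at days 50 to 70 (0.794%, 0.0963% to 2.84%). By block they were 4 of 81, 36 of 102 and 12 of 30 cells at days 70 to 80, against 1 of 109, 0 of 72, 0 of 15 and 1 of 56 cells at days 50 to 70. The block shares of days 70 to 80 were 4.94%, 35.3% and 40%. Each lies outside the pooled interval, which does not cover differences between blocks. Without thinning they were 89 of 253 cells at days 70 to 80 and 11 of 289 at days 50 to 70. A further 72 thinned cells of days 70 to 80 and 24 of days 50 to 70 held 7 to 9 of the genes, so the threshold cuts through a range of values. The highest cell had 32 of the genes at days 70 to 80 and 10 at days 50 to 70. The 52 cells carried a median of 15 of 15 hepatocyte markers, but every thinned cell of either stage carried at least 14. That count therefore cannot tell a single hepatocyte from a hepatocyte picked together with another cell. The 52 cells had a median 8.69% of reads in albumin, against 9.84% in the other cells of that stage. They also had more genes detected, a median of 6664 against 6341. Within blocks 1, 2 and 3 of days 70 to 80 the medians were 7605.5 against 6658, 6552 against 5661 and 6894.5 against 6414, wider gaps than the pooled one. Whether 2 cells were picked into 1 well was not tested.

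**Figure D3:**
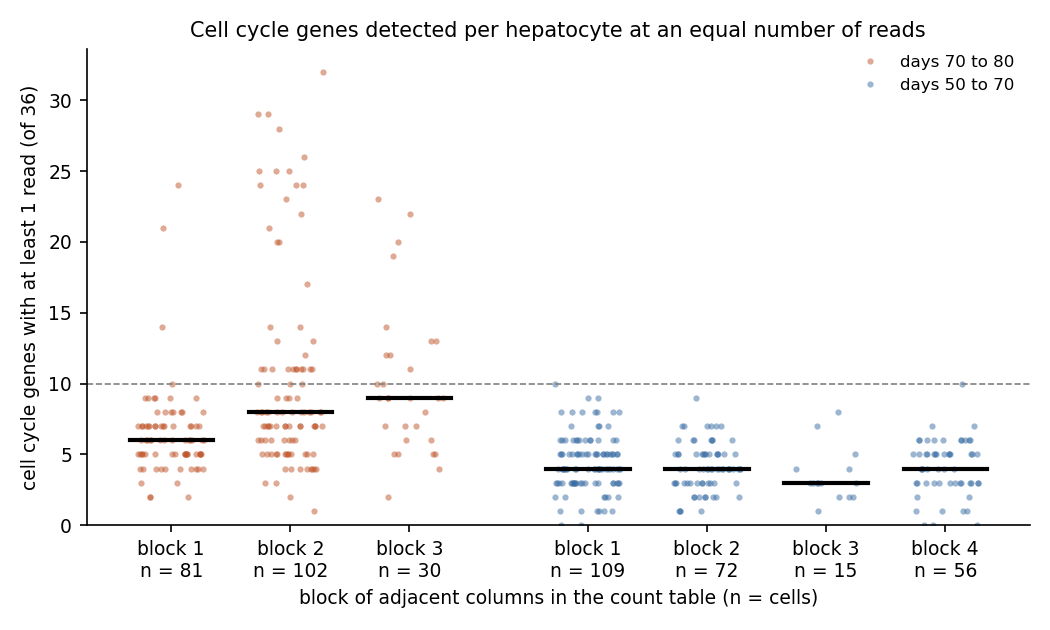
Number of the 36 cell cycle genes with at least 1 read in each thinned cell (vertical axis), by block of adjacent columns; points are cells, black lines block medians and the dashed line marks 10 genes. Cells with 10 or more genes are mainly in blocks 2 and 3 of days 70 to 80, which hold 36 and 12 of them.

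Apart from the cell cycle, the gene with the highest ratio by the naming rule was CHP2, a calcineurin B-like protein that acts as a cofactor of sodium-proton exchangers. It had 77.7, 57.1 and 37.1 CPM in the 3 blocks of days 70 to 80, against 0.862, 2.05, 3.91 and 0.838 CPM in the 4 blocks of days 50 to 70. All 3 later blocks were far above all 4 earlier ones. Summed, it had 65.7 CPM (64.3 to 67.2) at days 70 to 80 and 1.38 CPM (1.18 to 1.61) at days 50 to 70, a 47.6-fold ratio. It was detected in 70.9% of cells at days 70 to 80, against 9.52% at days 50 to 70. Without thinning it was found in 73.1% of cells at days 70 to 80 and 11.8% at days 50 to 70. The other 4 gestation stages had 4.84 to 11.8 CPM, so days 70 to 80 were the highest and days 50 to 70 the lowest of the 6. TDRD15, a tudor domain protein named for its detection, was also separate. It had 22.2, 48.5 and 46.5 CPM at days 70 to 80, against 6.55, 10.1, 15.3 and 19.3 CPM at days 50 to 70, and was found in 82.6% of cells at days 70 to 80, against 33.7% at days 50 to 70.

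Several genes of insulin and growth hormone signalling were higher at days 70 to 80. SOCS2, an inhibitor of growth hormone signalling, had 62.4, 173 and 164 CPM in the 3 blocks of days 70 to 80, against 10.7, 20.3, 42.6 and 10.2 CPM in the 4 blocks of days 50 to 70, with separate blocks. SOCS2's log2 ratio was 2.94, and 2.34 without block 2 of days 70 to 80. IRS2, the adaptor that links the insulin receptor to its kinases, had 23.7, 73 and 85.7 CPM at days 70 to 80, against 12.9, 5.48, 7.5 and 20 CPM at days 50 to 70 and was detected in 83.1% of cells at days 70 to 80, against 32.9% at days 50 to 70. IRS2's log2 ratio was 2.08, and 2.68 without block 1 and 1.48 without block 2 of days 70 to 80. Both were separate, and in both blocks 2 and 3 of days 70 to 80 stood above the first. IGFBP1, a secreted IGF-binding protein that insulin represses, had 119.95, 993 and 979 CPM in the 3 blocks of days 70 to 80, against 63.3, 169.5, 202 and 292 CPM in the 4 blocks of days 50 to 70, so its block 1 lay within the range of the earlier stage. IGFBP1's log2 ratio was 1.91, and 2.75 without block 1 and 0.72 without block 2 of days 70 to 80. Of 16 members of the growth hormone and IGF list at 5 CPM or more, 3 were at least 1.5-fold higher, namely these, and 0 lower. Among all genes compared 9.40% were 1.5-fold higher and 8.71% lower. The list had a median log2 ratio of -0.00049 against -0.028 for all genes. IGFBP2 had 221 CPM at days 70 to 80, against 314 CPM at days 50 to 70, with separate blocks, and lay within 1.5-fold.

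PDK4, PPARGC1A and LPIN1 were higher at days 70 to 80 with separate blocks. PDK4, a kinase that inhibits pyruvate dehydrogenase, had 90.1, 461 and 492 CPM in the 3 blocks of days 70 to 80, against 35.1, 29.9, 15 and 19.7 CPM in the 4 blocks of days 50 to 70. Its 278 CPM (275 to 281) at days 70 to 80 and 29.5 CPM (28.5 to 30.5) at days 50 to 70 gave a 9.45-fold ratio, and 96% of the later cells were above the median cell of the earlier stage. PDK4's log2 ratio was 3.24, and 3.98 without block 1 and 2.33 without block 2 of days 70 to 80. PPARGC1A, a coactivator of gluconeogenic and mitochondrial genes, had 46.8, 161 and 169 CPM at days 70 to 80, against 31.3, 24.4, 22.2 and 39.3 CPM at days 50 to 70. PPARGC1A's log2 ratio was 1.79, and 2.42 without block 1 and 1.08 without block 2 of days 70 to 80. LPIN1, a phosphatidate phosphatase and PPARGC1A partner, had 22.2, 61.7 and 70.7 CPM at days 70 to 80, against 10.8, 7.3, 7.01 and 12.8 CPM at days 50 to 70 (log2 ratio 2.1). The secreted lipoprotein lipase inhibitors ANGPTL4 and ANGPTL8 differed in opposite directions. ANGPTL4, which fasting induces, had 8.09, 28.1 and 42.5 CPM in the 3 blocks of days 70 to 80, against 3.66, 3.09, 19.7 and 3.57 CPM in the 4 blocks of days 50 to 70. ANGPTL4's log2 ratio was 2.16, and 2.82 without block 1 and 1.59 without block 2 of days 70 to 80, and its blocks overlapped. ANGPTL8, which feeding induces, had 33.8, 9.02 and 13.9 CPM at days 70 to 80, against 60.6, 49.6, 51 and 227 CPM at days 50 to 70, with separate blocks, and was detected in 60.1% of cells at days 70 to 80, against 91.3% at days 50 to 70. ANGPTL8's log2 ratio was -2.03, and -3.18 without block 1 of days 70 to 80 and -1.35 without block 4 of days 50 to 70.

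**Figure D4:**
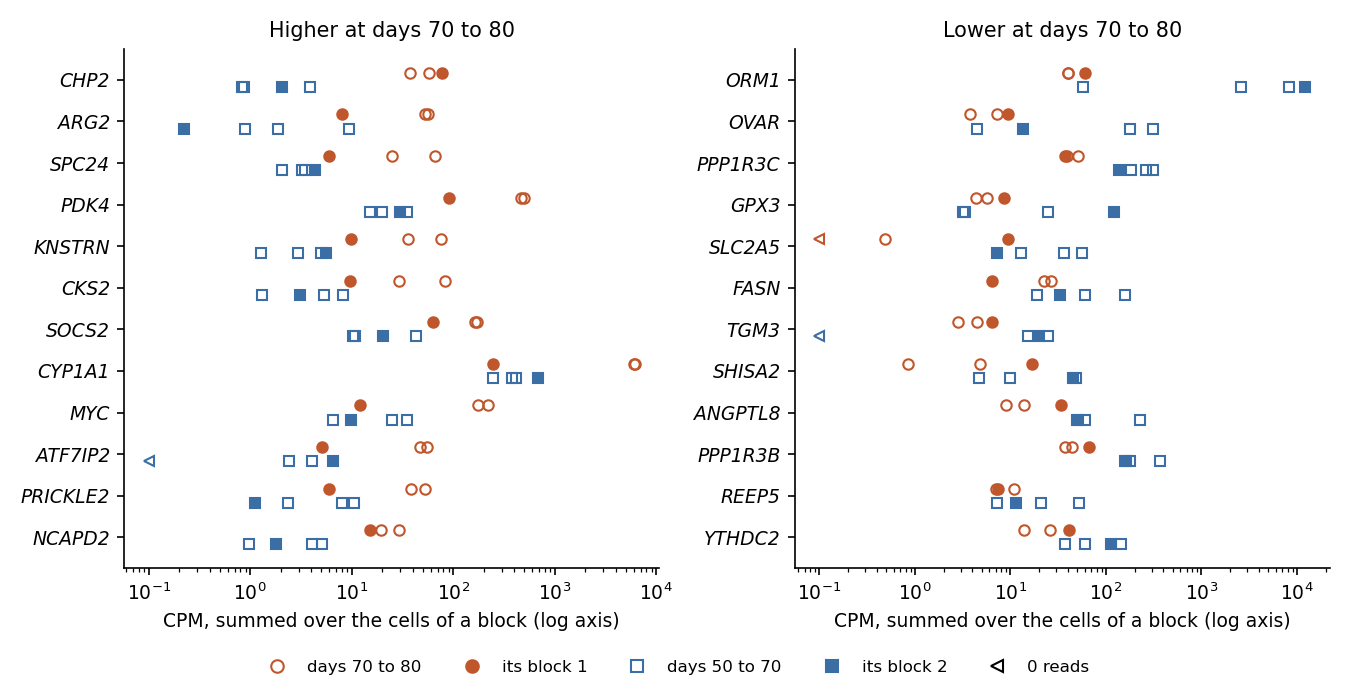
CPM of the 12 genes with the largest ratio in each direction under the naming rule, summed over the cells of each column block on a log axis; circles are blocks of days 70 to 80, with its block 1 filled, squares are blocks of days 50 to 70, with its block 2 filled, and triangles mark 0 reads. CHP2, SPC24, PDK4, KNSTRN, CKS2, SOCS2 and NCAPD2 have separate blocks, as do PPP1R3C, ANGPTL8 and PPP1R3B, while CYP1A1 and MYC are high only in blocks 2 and 3 of days 70 to 80 and ORM1 is low in 1 earlier block.

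A set of genes was high in blocks 2 and 3 of days 70 to 80 and not in its block 1. CYP1A1, the oxidase switched on by the aryl hydrocarbon receptor, had 247, 6089 and 6139.7 CPM in the 3 blocks of days 70 to 80, against 381, 687, 418 and 245 CPM in the 4 blocks of days 50 to 70. Above 1000 CPM were 0 of 89, 119 of 119 and 44 of 45 cells of the later blocks, against 2 of 125, 20 of 79, 1 of 16 and 0 of 69 cells of the earlier ones. Its summed ratio of 7.06 therefore describes blocks 2 and 3, and block 1 lay near the lower end of the earlier blocks. CYP1A1's log2 ratio was 2.82, and 3.76 without block 1 and 1.27 without block 2 of days 70 to 80. The receptor's own gene AHR had 45.6 CPM at days 70 to 80, against 84.4 CPM at days 50 to 70, and its blocks overlapped. By block AHR had 43.9, 47.6 and 46.3 CPM at days 70 to 80, against 83.5, 119, 89.8 and 31 CPM at days 50 to 70. MYC, a transcription factor of cell growth, had 12.1, 174 and 219 CPM in the 3 blocks of days 70 to 80, against 6.5, 9.8, 25.1 and 35 CPM in the 4 blocks of days 50 to 70. MYC's log2 ratio was 2.79, and 3.7 without block 1 and 1.57 without block 2 of days 70 to 80 and 3.44 without block 4 of days 50 to 70. FOSL2, an AP-1 subunit, had 10.7, 74.8 and 78.3 CPM at days 70 to 80, against 10.2, 13.1, 15.2 and 12.4 CPM at days 50 to 70. FOSL2's log2 ratio was 1.87, and 2.68 without block 1 and 0.79 without block 2 of days 70 to 80. LOC101109214, which the RefSeq table lists as protein-coding with no name, had 992, 7457 and 7311 CPM in the 3 blocks of days 70 to 80, against 1309, 2125, 1211 and 582 CPM in the 4 blocks of days 50 to 70, likewise highest in blocks 2 and 3 of days 70 to 80.

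Of 16 immediate early and stress-induced genes at 5 CPM or more, 9 were at least 1.5-fold higher (all genes 9.40%) and 1, ATF3, lower (all genes 8.71%), with a median log2 ratio of 0.81 that was 1.28 without block 1 of days 70 to 80 and 0.18 without its block 2. Only GADD45B had separate blocks, at 11.1, 15.4 and 18.3 CPM at days 70 to 80, against 5.44, 8.29, 7.66 and 2.69 CPM at days 50 to 70. BTG2, an antiproliferative gene, had 45.3, 199.8 and 237 CPM at days 70 to 80, against 27.2, 19.2, 74.5 and 98.8 CPM at days 50 to 70. TSC22D3 (GILZ), which the glucocorticoid receptor induces, had 70.6, 232 and 246 CPM in the 3 blocks of days 70 to 80, against 63.3, 49.8, 32.1 and 85.5 CPM in the 4 blocks of days 50 to 70. TSC22D3's log2 ratio was 1.3, and 1.92 without block 1 and 0.63 without block 2 of days 70 to 80. FKBP5, a chaperone of that receptor, had 4.23, 14.7 and 23.2 CPM at days 70 to 80, against 3.76, 5.51, 3.42 and 1.68 CPM at days 50 to 70. DDIT4, an inhibitor of mTORC1, had 36.4, 153 and 177 CPM at days 70 to 80, against 24.2, 30.6, 41.6 and 60.8 CPM at days 50 to 70. PER1, a clock gene, was highest in block 1 of days 70 to 80 and had separate blocks, at 41.9, 24.3 and 30.9 CPM at days 70 to 80, against 12.6, 6.52, 18.6 and 22.2 CPM at days 50 to 70 (log2 ratio 1.38). Of 12 steroid hormone handling genes at 5 CPM, 4 were 1.5-fold higher (all genes 9.40%) and 1, SRD5A2, lower (all genes 8.71%), and only PER1 had separate blocks. Among 15 clock genes 4 were 1.5-fold higher (all genes 9.40%) and 1 lower (all genes 8.71%). PER1, PER3 and NR1D2 were among the higher ones, and only PER1 had separate blocks (all genes 5.80%). PER3 had 24.5, 13.1 and 12.1 CPM at days 70 to 80, against 7.26, 15.9, 4.24 and 6.35 CPM at days 50 to 70. NR1D2 had 77.2, 78.6 and 74.7 CPM at days 70 to 80, against 43.4, 42.5, 84.9 and 41.5 CPM at days 50 to 70. Both overlapped.

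In glucose handling the plainest differences were in glycogen targeting. PPP1R3C and PPP1R3B, regulatory subunits that bring protein phosphatase 1 to glycogen and promote its synthesis, were lower in every block. PPP1R3C had 37.4, 39 and 51.3 CPM in the 3 blocks of days 70 to 80, against 307, 138, 185 and 260.1 CPM in the 4 blocks of days 50 to 70. Summed, it had 39.2 CPM (38.1 to 40.3) at days 70 to 80 and 240.1 CPM (237 to 243) at days 50 to 70, 6.12-fold lower at the later stage, and only 0.791% of the later cells lay above the median cell of the earlier stage. PPP1R3B had 65.9, 37.6 and 43.9 CPM at days 70 to 80, against 179, 159.8, 162 and 367 CPM at days 50 to 70, 3.99-fold lower. Across the 6 gestation stages days 70 to 80 were the lowest for both genes. GYS2, the liver glycogen synthase itself, pointed the other way at 92.5, 81.9 and 90.3 CPM at days 70 to 80, against 62.7, 66.2, 54.3 and 44.3 CPM at days 50 to 70, separate but within 1.5-fold. Of 20 glycogen and glycolysis genes at 5 CPM, 3 were 1.5-fold lower (all genes 8.71%), PFKFB3 being the third, and 1 was higher.

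G6PC1, the phosphatase that releases free glucose, had 490.5, 1118 and 1146 CPM in the 3 blocks of days 70 to 80, against 309, 297, 225 and 911 CPM in the 4 blocks of days 50 to 70 (log2 ratio 0.95), with block 4 of days 50 to 70 inside the later range. PC, pyruvate carboxylase, had 104, 40.9 and 50.5 CPM at days 70 to 80, against 36.2, 53.2, 80.4 and 52.2 CPM at days 50 to 70, high in block 1 of days 70 to 80 alone. FBP1 had 1623, 763 and 786 CPM at days 70 to 80, against 948, 549, 765 and 1064 CPM at days 50 to 70. Of 17 genes of gluconeogenesis and propionate use at 5 CPM, 2, PC and G6PC1, were 1.5-fold higher (all genes 9.40%) and 0 lower (all genes 8.71%), and 0 had separate blocks. PC's log2 ratio of 0.65 turned to -0.14 without block 1 of days 70 to 80. The list's median was 0.049, turning to -0.07 without block 2 of days 70 to 80, against -0.028 for all genes. SLC2A5, the fructose transporter, had 9.47, 0.487 and 0 CPM in the 3 blocks of days 70 to 80, against 13, 7.3, 36.2 and 56.7 CPM in the 4 blocks of days 50 to 70, highest in blocks 3 and 4 of days 50 to 70. SLC2A5's log2 ratio was -2.09, and -5.69 without block 1 and -1.37 without block 2 of days 70 to 80 and -1.32 without block 4 of days 50 to 70.

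Genes of fat synthesis were lower as a group. Of 20 fatty acid synthesis genes at 5 CPM or more, 7 were at least 1.5-fold lower at days 70 to 80 (all genes 8.71%) and 0 higher (all genes 9.40%), with a median log2 ratio of -0.42 and -0.19 without block 1 of days 70 to 80. FASN, the enzyme that builds palmitate, had 6.48, 26.5 and 22.7 CPM in the 3 blocks of days 70 to 80, against 59.8, 33.2, 19.1 and 159 CPM in the 4 blocks of days 50 to 70. FASN's log2 ratio was -2.09, and -1.41 without block 1 and -2.97 without block 2 of days 70 to 80. The 16-cell earlier block lay among the later ones, and the other earlier blocks above them. ACACA, which makes malonyl-CoA for it, had 5.92, 18.2 and 22.5 CPM at days 70 to 80, against 26.2, 27.7, 21.4 and 33.7 CPM at days 50 to 70. THRSP, a lipogenic coactivator, had 48.2, 285 and 182 CPM at days 70 to 80, against 633, 351, 92.3 and 360.4 CPM at days 50 to 70. THRSP's log2 ratio was -1.56, and -0.80 without block 1 and -2.79 without block 2 of days 70 to 80. MID1IP1, a partner of acetyl-CoA carboxylase, had 18.3, 10.5 and 20.9 CPM at days 70 to 80, against 27, 32.5, 32.4 and 86.2 CPM at days 50 to 70 (log2 ratio -1.41) and was separate, as was ACACB, the isoform that controls fat oxidation, at 5.76, 6.11 and 7.43 CPM at days 70 to 80, against 13.4, 9.38, 16.1 and 8.2 CPM at days 50 to 70. SLC25A1, the mitochondrial citrate carrier, had 64.2 CPM at days 70 to 80, against 121 CPM at days 50 to 70. ACLY, which splits that citrate to acetyl-CoA, had 28.1 CPM at days 70 to 80, against 44.5 CPM at days 50 to 70.

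Of 22 cholesterol synthesis genes at 5 CPM, 18 had a lower summed level (all genes 4604 of 8619) and 3 were 1.5-fold lower (all genes 8.71%), with a median of -0.35. Several members were lowest in block 1 of days 70 to 80. HMGCS1 had 195, 659.8 and 482 CPM at days 70 to 80, against 767, 345, 412 and 580.2 CPM at days 50 to 70. SQLE had 120.2, 222 and 184 CPM at days 70 to 80, against 289.9, 200.03, 211 and 252 CPM at days 50 to 70. INSIG1, a sterol sensor, had 70.3, 176 and 199.9 CPM at days 70 to 80, against 200.3, 99.9, 171 and 346 CPM at days 50 to 70. Without that block the list's median was -0.0061, a block of 89 cells. The glycerolipid side differed from this. Of 22 genes of triglyceride assembly and VLDL, 2, LPIN1 and PLIN2, were 1.5-fold higher (all genes 9.40%) and 0 lower (all genes 8.71%). PLIN2, a lipid droplet coat protein, had 8.93 CPM at days 70 to 80, against 4.71 CPM at days 50 to 70.

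Of 26 genes of fatty acid oxidation at 5 CPM, 17 had a higher summed level, against 4015 of 8619 genes in all. Of them 1 (PPARGC1A) was 1.5-fold higher (all genes 9.40%) and 0 lower (all genes 8.71%), with a median of 0.11. PPARA, the nuclear receptor that governs this pathway, had 137, 127 and 121 CPM at days 70 to 80, against 86.2, 81, 46.6 and 114 CPM at days 50 to 70, separate and within 1.5-fold. EHHADH, a peroxisomal enzyme under it, had 926, 1508 and 1604 CPM at days 70 to 80, against 896, 843, 1147 and 883 CPM at days 50 to 70. Of the 5 ketone body genes at 5 CPM, 0 passed 1.5-fold in either direction.

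Nitrogen handling showed single genes with wide ratios. ARG2, the mitochondrial arginase that is low in normal liver, had 7.94, 56.4 and 52.9 CPM in the 3 blocks of days 70 to 80, against 1.9, 0.225, 9.46 and 0.882 CPM in the 4 blocks of days 50 to 70. ARG2's log2 ratio was 4.33, and 5.14 without block 1 and 3.18 without block 2 of days 70 to 80. It was detected in 60.1% of cells at days 70 to 80, against 9.92% at days 50 to 70. ARG1, the arginase of the urea cycle, had 1165, 794 and 725 CPM at days 70 to 80, against 609.8, 711, 617 and 567 CPM at days 50 to 70, separate, a 1.54-fold ratio. Of 11 genes in the urea cycle list, 4 were at least 1.5-fold higher (ARG1, ASL, SLC25A15 and GLUL, all genes 9.40%) and 0 lower. GLUL, although listed there, is not itself a urea cycle enzyme. The list had a median log2 ratio of 0.37, which was 0.14 when each cell weighed the same. ASL, SLC25A15 and GLUL overlapped between blocks. GLUL, glutamine synthetase, had 122, 43.4 and 33.9 CPM at days 70 to 80, against 58.4, 16, 15.2 and 48.6 CPM at days 50 to 70. GLUL's log2 ratio was 0.98, and 0.017 without block 1 of days 70 to 80. Its top cell held 21.3% of its reads at days 70 to 80 and 26.4% at days 50 to 70. It was detected in 38% of cells at days 70 to 80, against 34.5% at days 50 to 70.

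Of 50 amino acid breakdown genes at 5 CPM, 7 were 1.5-fold higher (all genes 9.40%) and 2 lower (all genes 8.71%), with a median of 0.061. OAT, ornithine aminotransferase, had 12.9, 13.5 and 21.2 CPM at days 70 to 80, against 1.94, 1.07, 1.79 and 2.6 CPM at days 50 to 70 (log2 ratio 2.95), separate, but was found in only 23.5% of cells at days 70 to 80, against 8.33% at days 50 to 70. HAL, which starts histidine breakdown, had 60.9, 55.9 and 38 CPM at days 70 to 80, against 23.4, 8.68, 34.4 and 24 CPM at days 50 to 70 (log2 ratio 1.54). TAT, which starts tyrosine breakdown, had 516, 478 and 432 CPM at days 70 to 80, against 347, 259, 353 and 219.9 CPM at days 50 to 70. Both were separate. SDS, which turns serine into pyruvate, was high in blocks 2 and 3 alone, at 3.66, 53.1 and 53 CPM at days 70 to 80, against 8.74, 6.4, 9.29 and 16 CPM at days 50 to 70. Lower was AFMID, the formamidase of tryptophan breakdown, at 23.7, 18.3 and 18.6 CPM in the 3 blocks of days 70 to 80, against 93.8, 54.9, 84.3 and 61.7 CPM in the 4 blocks of days 50 to 70, 3.58-fold and separate. In amino acid transport, 3 of 13 genes were 1.5-fold higher (all genes 9.40%) and 0 lower: SLC38A2, a neutral amino acid carrier, had 17.5, 88 and 108 CPM at days 70 to 80, against 26.4, 15.6, 9.29 and 16 CPM at days 50 to 70. SLC7A2, a carrier of arginine, had 101, 91.1 and 82.1 CPM at days 70 to 80, against 67, 50.6, 59.7 and 65.3 CPM at days 50 to 70.

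Secreted plasma proteins were mostly lower, and the widest single difference among them belonged to part of the cells. Of 17 acute phase genes at 5 CPM or more, 9 were at least 1.5-fold lower at days 70 to 80 (all genes 8.71%) and 0 higher, with a median log2 ratio of -0.63, between -0.37 and -0.80 with any 1 block left out. ORM1, alpha-1-acid glycoprotein, had 50 CPM (48.8 to 51.3) at days 70 to 80 and 4707 CPM (4694 to 4719) at days 50 to 70, 94.1-fold lower. By block it had 59.6, 40.4 and 40.2 CPM in the 3 blocks of days 70 to 80, against 57, 12264, 8186 and 2604 CPM in the 4 blocks of days 50 to 70. The first 125 cells of days 50 to 70 were thus at the later level. Above 1000 CPM were 0 of 89, 2 of 119 and 0 of 45 cells of the later blocks, against 0 of 125, 79 of 79, 15 of 16 and 43 of 69 cells of the earlier ones. The log2 ratio was -6.56, and -7.4 without block 1 and -4.79 without block 2 of days 50 to 70.

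The 3 fibrinogen chains, which form the clot, were lower with separate blocks. FGB had 13865, 7287 and 6057 CPM in the 3 blocks of days 70 to 80, against 14212, 19509, 26212 and 16636 CPM in the 4 blocks of days 50 to 70, 1.62-fold lower. FGG had 6723 CPM at days 70 to 80, against 11075 CPM at days 50 to 70. FGA had 3788 CPM at days 70 to 80, against 5881 CPM at days 50 to 70. HPX, the heme carrier, had 74.7, 169 and 123 CPM at days 70 to 80, against 219, 275, 344 and 197 CPM at days 50 to 70. ITIH4 had 577, 472 and 513 CPM at days 70 to 80, against 617, 1840.4, 1393 and 734 CPM at days 50 to 70. Both were separate. LBP, which binds bacterial lipopolysaccharide, had 84.6, 98.4 and 117 CPM at days 70 to 80, against 246, 383, 462 and 103 CPM at days 50 to 70, with block 4 of days 50 to 70 inside the later range. HAMP (hepcidin), the iron hormone, had 127, 242 and 138 CPM in the 3 blocks of days 70 to 80, against 96, 111, 1921 and 1344 CPM in the 4 blocks of days 50 to 70, its high values lying in blocks 3 and 4 of days 50 to 70.

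Complement and coagulation genes lay lower by small amounts. Of 32 at 5 CPM, 27 had a lower summed level (all genes 4604 of 8619), 0 passed 1.5-fold in either direction and 9 had separate blocks, against 5.48% of all genes, with a median of -0.29. PROC, protein C, had 256, 322 and 372 CPM at days 70 to 80, against 353, 448, 573 and 447 CPM at days 50 to 70, which overlapped. C1S, a protease that starts complement, had 779, 751 and 708 CPM at days 70 to 80, against 863, 1280.5, 1435 and 1117 CPM at days 50 to 70, with separate blocks. MBL2, a complement lectin, was the most different member in the other direction, at 929.9 CPM at days 70 to 80, against 660.01 CPM at days 50 to 70. Of 19 carrier protein genes 2 were 1.5-fold lower (all genes 8.71%), both separate. HRG, histidine-rich glycoprotein, had 648, 620.3 and 558 CPM at days 70 to 80, against 722, 1631, 2468 and 1339 CPM at days 50 to 70. SERPINA7, the thyroxine carrier, had 136, 113 and 108 CPM at days 70 to 80, against 217, 177, 255 and 296 CPM at days 50 to 70. Their median was -0.072 (all genes -0.028), and 0.065 under scaling by library size alone (all genes 0.109). Among 8 apolipoproteins APOA5, which promotes triglyceride clearance, was 1.5-fold higher (all genes 9.40%) at 765, 335 and 419 CPM at days 70 to 80, against 243, 138, 226 and 542 CPM at days 50 to 70, and 0 were lower.

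Of 19 hepatokine and liver hormone genes at 5 CPM, 5 were 1.5-fold lower (all genes 8.71%) and 3 higher (all genes 9.40%), with a median of -0.24. The activin and inhibin chains were among the lower ones. INHBE had 54, 10.2 and 11 CPM in the 3 blocks of days 70 to 80, against 63.1, 54.5, 157 and 160.00 CPM in the 4 blocks of days 50 to 70, its lowest earlier block lying just above its highest later one. INHBE's log2 ratio was -1.39, and -3.02 without block 1 of days 70 to 80. INHBC had 15.5, 12.3 and 12.9 CPM at days 70 to 80, against 17.4, 30.1, 21.8 and 34.7 CPM at days 50 to 70. Both were separate. INHBA had 1.52, 5.17 and 8.37 CPM at days 70 to 80, against 8.12, 8.6, 13.2 and 44.6 CPM at days 50 to 70. FST (follistatin), which binds activins, was higher at 10.4, 13 and 14.7 CPM at days 70 to 80, against 6.09, 9.78, 9.95 and 2.82 CPM at days 50 to 70, also separate.

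**Figure D5:**
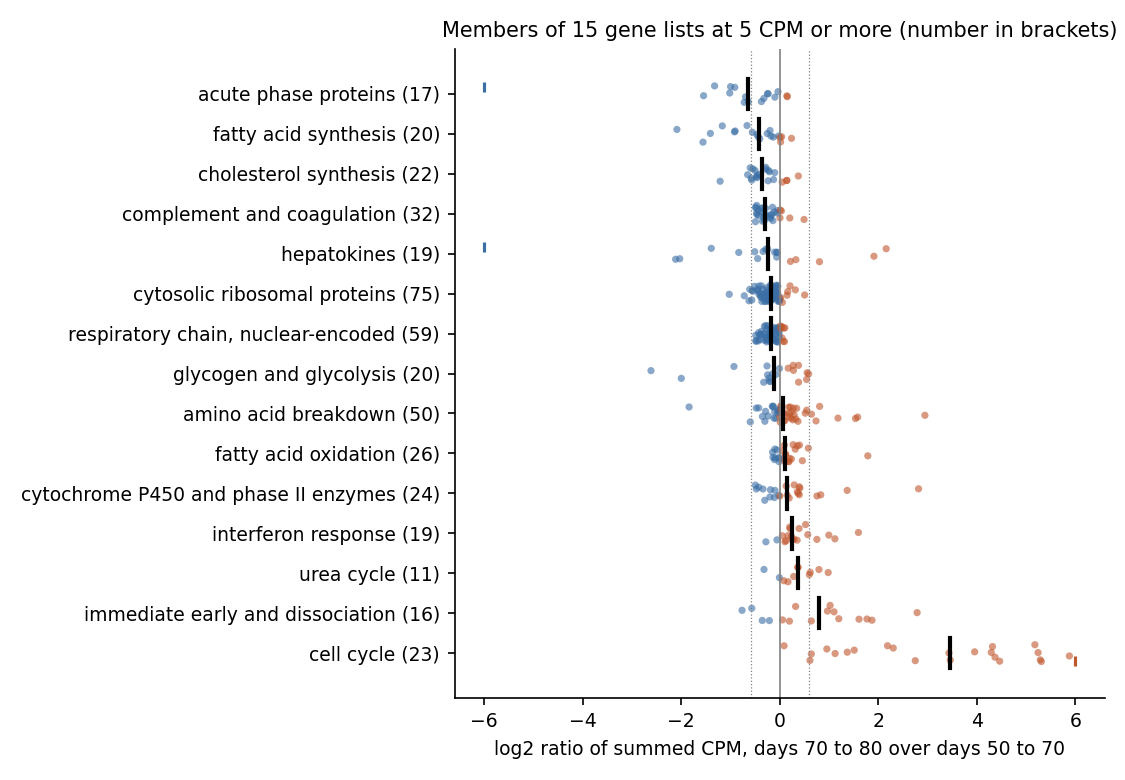
Log2 ratio of summed CPM, days 70 to 80 over days 50 to 70, of every member at 5 CPM or more of 15 gene lists; each point is a gene, black bars are medians, dotted lines mark 1.5-fold and ratios beyond 6 are drawn as ticks at 6. Acute phase and fatty acid synthesis genes lie mostly left of 0, with medians of -0.63 and -0.42, and cell cycle genes right of it, most of which reached 5 CPM at days 70 to 80 alone.

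Genes of the basic machinery stood slightly lower. Of 75 cytosolic ribosomal protein genes at 5 CPM, 67 had a lower summed level, against 4604 of 8619 genes in all, and 4 were 1.5-fold lower (all genes 8.71%). Their median log2 ratio was -0.18 (all genes -0.028), against -0.04 under scaling by library size alone (all genes 0.109). These genes have many near-identical copies, among which reads cannot be placed with certainty. Of 59 nuclear-encoded respiratory chain genes, 50 were lower in sum (all genes 4604 of 8619) and 0 passed 1.5-fold (all genes 8.71% lower and 9.40% higher). Their medians were -0.18 with TMM and -0.042 by library size alone (all genes -0.028 and 0.109). SDHC, a subunit of complex II, had 164 CPM at days 70 to 80, against 229.7 CPM at days 50 to 70, with separate blocks. Of 29 proteasome genes 1, PSMD4, was 1.5-fold higher (all genes 9.40%) and 0 lower (all genes 8.71%). PSMD4 had 38.6, 12.9 and 11.8 CPM at days 70 to 80, against 15.8, 13.8, 23.6 and 19.8 CPM at days 50 to 70, high in block 1 of days 70 to 80 alone. Its log2 ratio of 0.65 turned to -0.36 without that block.

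Stress pathways divided by gene. ATF4, the effector of the integrated stress response, had 152, 181 and 186 CPM at days 70 to 80, against 305, 256, 297 and 323 CPM at days 50 to 70, separate. AARS1, an alanyl-tRNA synthetase, had 23.3, 16.4 and 22.2 CPM at days 70 to 80, against 28.8, 33.9, 27.6 and 27.2 CPM at days 50 to 70. In that list 1 of 19 genes at 5 CPM, DDIT4, was 1.5-fold higher and 2 lower (all genes 9.40% and 8.71%, for this and the next 4 lists). In the unfolded protein response the sensor ERN1 (IRE1) was higher at 73.6, 86.5 and 97.2 CPM at days 70 to 80, against 41.4, 32.4, 32.8 and 35.1 CPM at days 50 to 70, separate, while XBP1, whose messenger RNA it splices, was lower at 171, 108 and 155 CPM at days 70 to 80, against 262, 181, 251 and 228 CPM at days 50 to 70, also separate. ERN1, XBP1 and SYVN1 were the members past 1.5-fold among 29. The median of -0.04 (all genes -0.028) was 0.10 under scaling by library size alone (all genes 0.109). Of 14 heat shock genes 0 were higher and 2 lower, DNAJB1 and HSF1. Of 19 NRF2 targets 0 were higher and 2 lower, PRDX6, a peroxiredoxin, and GCLC, which makes glutathione, and both overlapped between blocks. Of 14 metal handling genes 2 were lower, HAMP and SLC30A1, a zinc exporter at 79 CPM at days 70 to 80, against 120.1 CPM at days 50 to 70.

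Of 19 interferon response genes at 5 CPM, 17 had a higher summed level (all genes 4015 of 8619), 4 were 1.5-fold higher (all genes 9.40%) and 0 lower, with a median of 0.26. IFI6 had 338, 814 and 752 CPM in the 3 blocks of days 70 to 80, against 132, 99, 490.1 and 878 CPM in the 4 blocks of days 50 to 70, so the earlier blocks spanned the later ones. HERC6, an interferon-induced ligase, had 9.86, 31.3 and 24.6 CPM at days 70 to 80, against 6.73, 4.38, 8.15 and 9.48 CPM at days 50 to 70 and was separate. Lymphocyte markers ranged over 1.69 to 65.4 CPM among the later blocks and 1.53 to 77.8 among the earlier ones, and their part in these values was not tested.

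Of 27 hepatocyte transcription factors and nuclear receptors at 5 CPM, 1 (PPARGC1A) was 1.5-fold higher and 5 were lower (all genes 9.40% and 8.71%). Their median was -0.13 (all genes -0.028) and turned to 0.011 under scaling by library size alone (all genes 0.109). NR0B2 (SHP), a repressor of bile acid synthesis, had 18.8, 2.27 and 2.44 CPM at days 70 to 80, against 23.8, 39, 21.4 and 10.6 CPM at days 50 to 70. PROX1, a factor of hepatocyte identity, had 232, 226 and 217 CPM at days 70 to 80, against 489.9, 357, 133 and 219.8 CPM at days 50 to 70. Both overlapped. Of 14 bile acid genes NR0B2 was the one past 1.5-fold. Of 24 drug-metabolizing genes 4 were 1.5-fold higher (all genes 9.40%) and 0 lower, CYP1A1 and UGT1A6, a glucuronosyltransferase that AHR also drives, among them. UGT1A6 had 8.05, 18.6 and 14.4 CPM in the 3 blocks of days 70 to 80, against 4.94, 5.45, 6.03 and 4.28 CPM in the 4 blocks of days 50 to 70, separate in all blocks including block 1.

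Genes with a known zone in the liver lobule were counted by zone. Of 18 pericentral genes 3 were 1.5-fold higher (all genes 9.40%) and 1, AHR, lower (all genes 8.71%), with a median of 0.10 that turned to -0.078 without block 2 of days 70 to 80. Of 22 periportal genes 6 were higher and 1, FGB, lower, with a median of 0.17 that turned to -0.021 without block 2 of days 50 to 70. Periportal members named above, HAL, SDS and G6PC1, and pericentral ones, GLUL and OAT, were among the higher ones. For GLUL this came from block 1 of days 70 to 80, as given above.

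Among the most abundant transcripts a few unnamed genes differed widely between blocks. LOC101120204, listed in RefSeq as protein-coding with no name, had 379.6, 190.2 and 191 CPM in the 3 blocks of days 70 to 80, against 319, 74139, 57.7 and 233 CPM in the 4 blocks of days 50 to 70. Every one of the 79 cells of that second block was between 31849 and 105489 CPM, and no other cell of either stage passed 5293 CPM. Its 80.1-fold lower sum at days 70 to 80 became a log2 ratio of 0.049 without that block. LOC105601867 had 619, 317 and 372 CPM at days 70 to 80, against 586, 23069, 509 and 529 CPM at days 50 to 70, the same block standing out. LOC101102413 had 1806, 428 and 538 CPM at days 70 to 80, against 1208, 14907, 16738 and 709.7 CPM at days 50 to 70. LOC114117619 was high in another place, with 23905, 573 and 373 CPM in the 3 blocks of days 70 to 80, against 3929, 3830.1, 18743 and 1875 CPM in the 4 blocks of days 50 to 70, and its log2 ratio of 1.51 reversed to -2.99 without block 1 of days 70 to 80. LOC121818276, a transcribed pseudogene in RefSeq, had 58328, 11350.4 and 16227 CPM at days 70 to 80, against 58196, 7205, 11841 and 7448 CPM at days 50 to 70. Its log2 ratio of 0.22 turned to -1.32 without block 1 of days 70 to 80. All 5 overlapped between the stages.

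Other genes with large ratios likewise followed blocks. GPX3, the plasma glutathione peroxidase, had 8.56, 4.35 and 5.74 CPM in the 3 blocks of days 70 to 80, against 3.16, 120.3, 24.8 and 3.35 CPM in the 4 blocks of days 50 to 70, and its log2 ratio of -2.61 reversed to 0.44 without block 2 of days 50 to 70. OVAR had 9.52, 3.75 and 7.15 CPM at days 70 to 80, against 4.5, 13.6, 178 and 313 CPM at days 50 to 70, high in blocks 3 and 4 of days 50 to 70. SHISA2 had 16.8, 0.844 and 4.8 CPM at days 70 to 80, against 48.3, 45.4, 4.73 and 10 CPM at days 50 to 70. TGM3, a transglutaminase, had 6.45, 2.83 and 4.51 CPM at days 70 to 80, against 24.5, 20, 0 and 15.4 CPM at days 50 to 70. REEP5, which shapes the endoplasmic reticulum, had 7.42, 7.01 and 10.9 CPM at days 70 to 80, against 52.8, 11.5, 20.7 and 7.27 CPM at days 50 to 70. YTHDC2, an RNA helicase that reads methylated adenosine, had 41, 13.9 and 25.9 CPM at days 70 to 80, against 144, 112, 60.7 and 37.6 CPM at days 50 to 70. ATF7IP2 had 5.09, 46.7 and 54.9 CPM at days 70 to 80, against 2.43, 6.49, 0 and 4.01 CPM at days 50 to 70. PRICKLE2, a planar cell polarity protein, had 6.01, 38.6 and 52.9 CPM at days 70 to 80, against 2.38, 1.12, 10.6 and 7.98 CPM at days 50 to 70. Both were highest in blocks 2 and 3 of days 70 to 80.

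Genes found in far fewer cells at days 70 to 80 were mainly unnamed. LOC105608827, protein-coding in RefSeq, was found in 18.8% of cells at days 70 to 80, against 69% at days 50 to 70. It had 1.14, 1.35 and 2.54 CPM in the 3 blocks of days 70 to 80. The 4 blocks of days 50 to 70 had 37.1, 1.18, 3.26 and 85.7 CPM, so blocks 2 and 3 were near the later level. LOC105608827 was thus not separate. LOC105606280, a long noncoding RNA, was found in 3.29% of cells at days 70 to 80, against 48.4% at days 50 to 70. LOC105606280 had 0.235, 0.918 and 0.564 CPM in the 3 blocks of days 70 to 80, against 12.6, 78.3, 47.1 and 4.28 CPM in the 4 blocks of days 50 to 70, separate in every block. LOC105611038 was found in 45.5% of cells at days 70 to 80, against 79.8% at days 50 to 70, LOC121820230, a long noncoding RNA, in 1.88% of cells at days 70 to 80, against 39.7% at days 50 to 70, and neither was separate. LOC106991226 had 0.751, 21 and 18.7 CPM at days 70 to 80, against 15.4, 18.7, 30 and 25.5 CPM at days 50 to 70, low in block 1 of days 70 to 80 alone. LOC132659352, a long noncoding RNA, had 38.9, 0.131 and 1.13 CPM at days 70 to 80, against 12.9, 14, 63.3 and 61.2 CPM at days 50 to 70, low in blocks 2 and 3 of days 70 to 80. At the top of the scale ALDH1A1, a retinal dehydrogenase, had 5442 CPM at days 70 to 80, against 4245 CPM at days 50 to 70. CYB5A, cytochrome b5, had 6194 CPM at days 70 to 80, against 4702 CPM at days 50 to 70. Both overlapped between blocks.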

How the data were processed

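The authors deposited counts of reads per gene and cell. The tools behind them were featureCounts 2.0.1, HISAT2 2.1.0 and Trimmomatic 0.39, per the submitters' processing notes. The genome build, strand setting and any collapse of molecular identifiers are not given in the sources used here. Of the table's rows 24 name no gene and were dropped. They held 0.799% of reads at days 70 to 80 and 0.417% at days 50 to 70. All other 28837 symbols were found in RefSeq, 12262 of them LOC identifiers.

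From there, counts were summed over the cells of a stage and given as CPM after TMM scaling over all 9 stages (edgeR 4.0.16 in R 4.3.3), with factors of 1.05 at days 70 to 80 and 0.954 at days 50 to 70. Genes of at least 5 CPM in the higher stage were compared, with 2-fold as the limit for single genes and 1.5-fold for lists. Ratios carry no pseudocount. Detection was counted in cells thinned to 155164 reads, the 10th percentile over all cells (NumPy 2.4.6). Intervals are exact 95% Poisson and Clopper-Pearson intervals (SciPy 1.17.1). The ratio and thinning steps were tested on simulated data. No cell was filtered out otherwise and no doublet caller was run. No cell name and no set of counts occurred in both stages.

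Genes were named by rule: up to 12 in each direction by fold, with a symbol other than a LOC identifier, at least 20 CPM and detection in 25% of thinned cells of the higher stage, and under 25% of reads in 1 cell; 6 in each direction by difference in CPM; 8 in each direction by difference in detection; and up to 3 per list by fold at 10 CPM or more. Other list members are named after their values were seen. Some genes the rule names are not reported here. The comparison, its 42 lists (918 of 1026 genes found) and the rules were chosen with earlier results of these data known. The column blocks and the counts of cells above 1000 CPM were added after the data were seen.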

Additional observations from a re-analysis of the deposited data

How the results depend on the processing

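With 1 sample on each side, all limits here are changes of value. Without a minimum level, 4189 genes were 2-fold higher and 3563 lower, and with a minimum of 20 CPM 111 higher and 103 lower, as more or fewer genes were then compared. Without block 1 of days 70 to 80 the counts were 604 and 374. Library size alone, equal weight per cell, thinned cells, the top cell of each gene left out and the other blocks left out gave 274 to 466 higher and 162 to 326 lower. The difference in median genes per cell was 623 with all cells thinned to the fewest reads of any, 509 with at least 3 reads required, 650 without block 1 and 1230 without block 2 of days 70 to 80, and 892 to 1035 in the other settings. Of 68 named genes past 2-fold, 54 were still past it without block 2 of days 70 to 80, and 60 to 68 in the other settings. Among named genes past 2-fold, reversed log2 ratios were those of GPX3 (0.44) and LOC101120204 (0.049) without block 2 of days 50 to 70, and LOC114117619 (-2.99) without block 1 of days 70 to 80. Genes of smaller ratio also changed sign: PC (-0.14), PSMD4 (-0.36), FBP1 (-0.13), LOC106991226 (0.11) and LOC121818276 (-1.32) without block 1, CYB5A (-0.059) and LOC132659352 (0.41) without block 2 of days 70 to 80. LOC121818276 (-0.20 and -0.025) did so without block 2 or 4, and LOC132659352 (0.24) without block 4, of days 50 to 70. The cause was not tested. No paired analysis was possible because each stage is 1 sample. Each plate or animal alone was not run, since neither the column names nor the cell sheet name one.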
